A study of Mus musculus with 23 samples.

Results

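The peptide loading genes of MHC class I studied here were B2m, H2-K1, H2-D1, Tap1, Tap2, Tapbp, Erap1, Calr, Pdia3 and Nlrc5, a list of 10 genes of this pathway. They were found by symbol among the 47729 genes of the count table, and each of the 10 passed the filter on low counts that left 19597 genes for testing. RNA was sequenced from DCs sorted from the spleen of wild type BALB/c mice, in 23 libraries of pooled mice. The labels name 4 subsets, DC1a (CD8hi CD172-), DC1b (CD8Int CD172+), DC2 (CD8lo CD172hi) and DC3 (CD8- CD172lo), each from untreated mice and from mice labelled TLI, an abbreviation that the labels do not expand. The 8 untreated libraries came from pools 1 and 2, and the 15 TLI libraries from pools 1 to 4, of which only DC2 of pool 2 was not analysed here. By the labels batch 2 consists of TLI pools 3 and 4, and every other library belongs to batch 1. No group carried a transgene or a deletion by its labels, and the labels give no age.

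Class I molecules carry short peptides from inside the cell to its surface, where CD8+ T cells read them. The heavy chain, encoded by genes such as H2-K1 and H2-D1, pairs with β2-microglobulin, the product of B2m. Peptides enter the endoplasmic reticulum through the transporter made of Tap1 and Tap2, are trimmed by the aminopeptidase Erap1, and are loaded with the help of tapasin (Tapbp), calreticulin (Calr) and the oxidoreductase Pdia3. Nlrc5 activates transcription of many of these genes through a module shared by class I promoters. Splenic DCs of the DC1 lineage are known for loading class I with peptides from material they have taken up, which is called cross-presentation.

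In mouse assembly GRCm38 these genes lay on chromosome 17 (Tapbp, 33915899 to 33929292; H2-K1, 33996017 to 34000347; Tap1, 34187553 to 34197225; Tap2, 34203527 to 34216321; H2-D1, 35262730 to 35267499), chromosome 2 (Pdia3, 121413775 to 121438687; B2m, 122147686 to 122153083), chromosome 8 (Calr, 84841850 to 84846934; Nlrc5, 94434356 to 94527272) and chromosome 13 (Erap1, 74639568 to 74693201). All 10 are annotated as protein coding. The reference is that of C57BL/6 mice, whose class I alleles differ from those of BALB/c. How many reads of the BALB/c alleles were lost in alignment, or counted for another class I gene, was not tested. Whether reads were counted by strand is not given in the sources used here. Exons of the opposite strand overlapped 11 exons of Tapbp (Gm19412), 3 of Tap1 (Psmb9), 5 of Tap2 (Gm15821), 3 of Nlrc5 (9330175E14Rik), 1 of Erap1 (Cast) and 1 of Pdia3 (Catsper2), so reads there cannot be assigned to a strand. All 76-base stretches of their transcripts were also searched in transcripts of other genes, on either strand. Of these stretches 18.4% in Tapbp, 10.3% in Erap1, 8.14% in Tap2, 5.40% in H2-D1 and 2.96% in H2-K1 occurred there. None did in B2m, Calr and Pdia3. In Erap1 and Tap2 every match was to the opposite strand, as were those with Gm19412 in Tapbp (17.4%). In H2-K1 every match was to the same strand.

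The promoters of the chains and of Calr are shown because B2m and H2-K1 were low in the same subset and Calr was high in the libraries of a single pool, as described below. The sequences are RefSeq promoters on GRCm38.p6, in which 8 of the 10 genes were matched (not Tap2 and Nlrc5). A spaced motif of the kind found in class I promoters, with the letters TGACG, any 20 bases and ATTGG, was searched on both strands of each window of 300 bases. It occurred in the windows of B2m, H2-K1 and H2-D1 and in that of H2-M3, a class I chain outside the list, and in 0.0944% of all 32851 promoter windows. The 4 matches are given 5′ to 3′ along the gene, with the fixed letters in capitals.
B2m: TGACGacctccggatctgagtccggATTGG
H2-K1: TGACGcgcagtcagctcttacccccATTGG
H2-D1: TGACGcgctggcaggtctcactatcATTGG
H2-M3: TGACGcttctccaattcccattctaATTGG
The B2m match lay at chr2:122147609-122147638 on the plus strand, that of H2-K1 at chr17:34000359-34000388 on the minus strand, that of H2-D1 at chr17:35262993-35263022 on the plus strand and that of H2-M3 at chr17:37270188-37270217 on the plus strand. The 20 letters between the fixed ones differed among all 4 genes.

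Longer stretches, from position -200 to -6 relative to the RefSeq start (position 0), are printed for B2m at chr2:122147487-122147681 (plus strand), for H2-K1 at chr17:34000353-34000547 (minus strand) and for Calr at chr8:84846937-84847131 (minus strand). Capitals mark the matched motifs.
B2m: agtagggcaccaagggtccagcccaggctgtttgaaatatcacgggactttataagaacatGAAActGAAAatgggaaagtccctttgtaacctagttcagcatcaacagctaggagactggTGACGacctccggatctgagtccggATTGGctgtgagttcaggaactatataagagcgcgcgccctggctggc
H2-K1: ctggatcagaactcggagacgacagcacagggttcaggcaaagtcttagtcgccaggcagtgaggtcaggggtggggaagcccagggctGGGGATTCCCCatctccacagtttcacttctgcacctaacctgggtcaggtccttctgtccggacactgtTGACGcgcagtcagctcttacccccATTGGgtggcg
Calr: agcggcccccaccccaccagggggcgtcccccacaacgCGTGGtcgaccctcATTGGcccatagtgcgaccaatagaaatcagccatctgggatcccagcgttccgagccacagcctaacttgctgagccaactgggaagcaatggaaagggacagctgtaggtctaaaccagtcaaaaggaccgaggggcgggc
Besides the spaced motif at -78 to -49, the B2m stretch held an interferon response motif (GAAA, any 2 bases, GAAA) at -139 to -130, which was present in 3.44% of all windows and also in that of Erap1. The H2-K1 stretch held the NF-kB palindrome, in capitals above, at -111 to -101, which 0.0304% of windows had, that of H2-D1 among them. Calr had an endoplasmic reticulum stress element (CCAAT, any 9 bases, CCACG) on the opposite strand at -162 to -144, present in 0.119% of windows, including those of the chaperones Canx, Hspa5, Hsp90b1 and Pdia6. Matched motifs did not overlap within a printed stretch, and a match describes letters and not binding.

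Total counts per library lay between 19256447 and 36997890, so that 3 counts, taken as the floor, corresponded to at most 0.156 CPM, the counts of a gene relative to the scaled total of its library. Totals were scaled by TMM factors of edgeR, which lay between 0.840 and 1.18. Amplified reads are not independent molecules, so that floors cover counting error only. Summed levels of 5 classical DC markers (Itgax, Flt3, Zbtb46, H2-Aa and H2-Ab1) were at least 5656 CPM in every library. The sum of 8 DC1 markers was 2034 to 2838 CPM in DC3. It was 2828 to 5079 CPM in DC1a, 835 to 1823 CPM in DC1b and 201 to 448 CPM in DC2. The sum of 6 DC2 markers was 17.3 to 93.5 CPM in DC3. In DC2 that sum was 152 to 616 CPM in TLI mice and 605 to 723 CPM in untreated mice. Sums of markers of other cells differed with group. The 5 plasmacytoid DC markers summed to 3511 and 4610 CPM in the untreated DC1b libraries and to at most 941 CPM elsewhere. The 8 neutrophil markers summed to 1445 to 23370 CPM in DC1b of TLI mice, against 3.97 to 76.5 CPM in DC3 of TLI mice and at most 17.1 CPM in untreated mice. The 7 monocyte and macrophage markers summed to 8058 to 25707 CPM in DC1b of TLI mice, against 1752 to 2972 CPM in untreated DC1b and 783 to 3204 CPM in DC3 of TLI mice. The 5 NK cell markers summed to 2624, 539, 13.8 and 35.1 CPM in DC3 of TLI pools 1 to 4. In untreated mice their sums were 219 and 90.9 CPM in DC3 and at most 6.30 CPM in the other subsets. The 5 erythroid markers summed to 44259 to 138245 CPM in the libraries of TLI pool 1, to 18489 to 25551 CPM in those of TLI pool 2 and to at most 2132 CPM in untreated mice. In sorted bulk samples fewer cells of a type and less RNA per cell cannot be told apart.

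The genes differed widely in level. Per kilobase of exon, the median level over the 23 libraries was 7682 CPM for B2m, 475 CPM for H2-D1, 87.9 CPM for Calr, 70.4 CPM for Pdia3, 70.3 CPM for H2-K1 and 36.0 CPM for Tapbp. The transporter genes were lower, at 9.22 CPM per kilobase for Tap1 and 8.003 for Tap2, followed by 4.24 for Erap1 and 2.81 for Nlrc5. The ranges over libraries of neighbours in this order overlapped from H2-D1 downwards, and only B2m, with 1875 to 14514 CPM per kilobase, stayed above the highest value of the next gene, 1363 CPM per kilobase for H2-D1. By the length of the longest transcript instead, H2-K1 (110 CPM per kilobase) stood between Calr (116) and Pdia3 (79.8).

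B2m was lowest in DC3. In untreated mice its level in pools 1 and 2 was 6727 and 6853 CPM in DC1a, 6088 and 8417 CPM in DC1b, 8717 and 6144 CPM in DC2, and 2271 and 2304 CPM in DC3. In TLI pools 1 to 4 it was 9121, 4759, 8956 and 12482 CPM in DC1b, and 4479, 1612, 2083 and 2470 CPM in DC3. DC2 of TLI pools 1, 3 and 4 had 6606, 7889 and 8914 CPM. In DC1a of TLI mice the pools fell apart, with 3363 and 3078 CPM in pools 1 and 2 of batch 1 and 9667 and 10446 CPM in pools 3 and 4 of batch 2. Over all libraries the 6 of DC3 spanned 1612 to 4479 CPM and the 17 of the other subsets 3078 to 12482 CPM. The ranges overlapped through DC3 of TLI pool 1 and DC1a of TLI pools 1 and 2, and DC3 did not overlap DC1b or DC2. Within a pool, B2m was lower in DC3 than in DC1b in 6 of 6 pools, than in DC2 in 5 of 5 pools and than in DC1a in 5 of 6 pools.

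**Figure D1:**
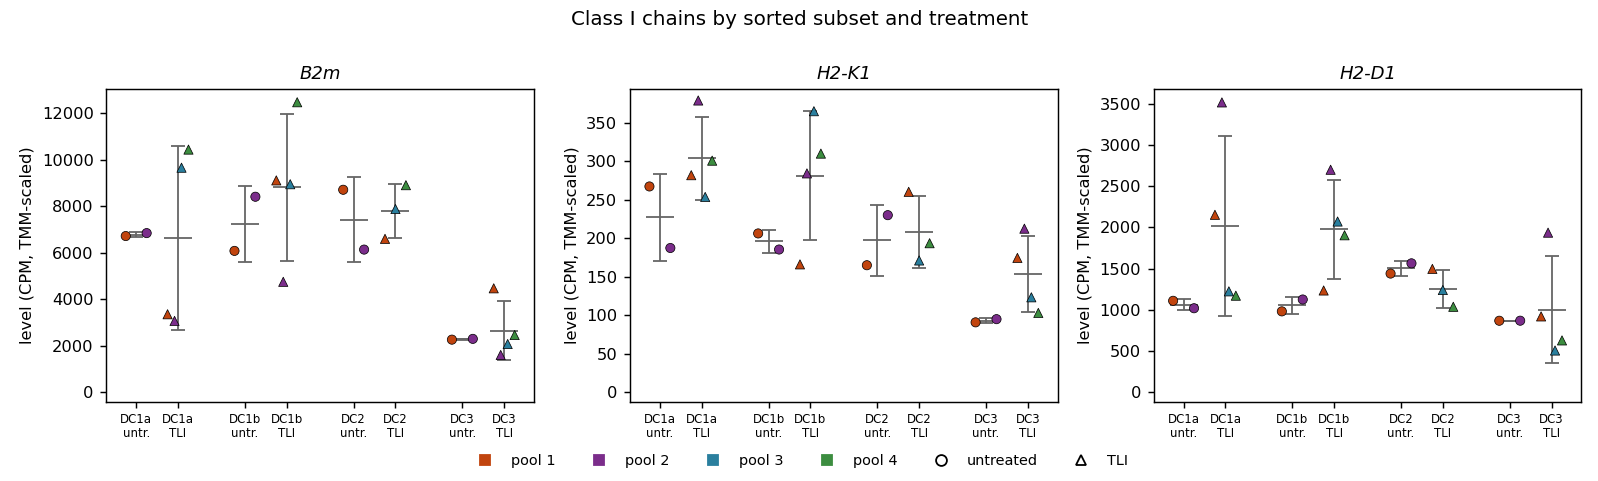
Level of B2m, H2-K1 and H2-D1 in CPM (linear axis, TMM-scaled) in each of the 23 libraries, by subset and treatment; points are libraries coloured by pool (circles untreated, triangles TLI), and horizontal lines with bars are the mean and SD of a group. B2m in DC3 lies between 1612 and 4479 CPM, and DC1a of TLI pools 1 and 2 sits at 3363 and 3078 CPM, apart from pools 3 and 4.

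In TLI mice B2m was lower in DC3 than in DC1b, with a log2 fold change of -1.63 (SE 0.36, adjusted p = 0.0362 by the quasi-likelihood test of edgeR, adjusted by Benjamini and Hochberg's method over 19597 genes). The means were 2661 ± 1262 and 8829 ± 3163 CPM (SD, n = 4 each). It was the only member called of 10 in that comparison, in which 1.11% of all genes were called. The difference was -1.19 in batch 1 alone (adjusted p = 0.699) and -2.23 in batch 2 alone (adjusted p = 0.0185, edgeR). The call was lost without any of 9 single libraries, with adjusted p up to 0.154 (DC1b of TLI pools 1, 3 and 4, DC3 of TLI pools 2, 3 and 4, DC2 of TLI pool 1 and both untreated DC1a libraries), while the log2 fold change stayed between -2.22 and -1.41. It was also lost without TLI pool 2 (-1.71, adjusted p = 0.0641), without the batch term (-1.73, adjusted p = 0.0597, edgeR) and with TLI libraries alone. Against DC1a the TLI difference was -1.13 (adjusted p = 0.252, edgeR), with -0.01 in batch 1 and -2.06 in batch 2, where the adjusted p was 0.0347. Without DC3 of TLI pool 1, the library with the most NK cell and erythroid marker RNA among DC3 libraries, it was -1.67 (adjusted p = 0.00669, edgeR). Against DC2 it was -1.39 (adjusted p = 0.106), and -1.94 without that library (adjusted p = 0.00192, edgeR). DC1b of TLI mice had more neutrophil and more monocyte and macrophage marker RNA than DC3 of TLI mice in every library, as given above. The part of these markers in the result was not tested.

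In untreated mice the DC3 differences in B2m were -1.57 against DC1a, -1.66 against DC1b and -1.70 against DC2, each with an SE of 0.51, with adjusted p of 0.442, 0.286 and 0.154 (edgeR). The means were 2288 ± 23.7 CPM in DC3, 6790 ± 89.5 in DC1a, 7253 ± 1647 in DC1b and 7431 ± 1819 in DC2 (SD, n = 2 each). No member was called in the 6 comparisons of untreated subsets, in which 0.837% (DC1b minus DC1a), 1.91% (DC2 minus DC1a), 0.184% (DC3 minus DC1a), 0.398% (DC2 minus DC1b), 0.393% (DC3 minus DC1b) and 0.837% (DC3 minus DC2) of all genes were called. Of the 60 pairs of member and comparison, 8 had an unadjusted p under 0.05 in edgeR (13.3%, against 7.47% to 13.1% of all genes in the single comparisons), and DESeq2 called 3. All 8 were in comparisons with DC3, and of these B2m and H2-K1 made up 6, lower in DC3, and Calr 2, higher in DC3. The change of these B2m differences with TLI was tested and not called.

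H2-K1, a heavy chain gene, was lowest in DC3 in every pool but TLI pool 1. In untreated pools 1 and 2 its level was 268 and 188 CPM in DC1a, 206 and 186 CPM in DC1b, 165 and 230 CPM in DC2, and 91.0 and 95.2 CPM in DC3. In TLI mice DC3 had 175, 213, 124 and 103 CPM in pools 1 to 4, against 282, 379, 254 and 301 CPM in DC1a and 166, 284, 365 and 310 CPM in DC1b. DC2 of TLI pools 1, 3 and 4 had 261, 171 and 194 CPM. The DC3 libraries overlapped those of DC1b and DC2 in TLI mice and none in untreated mice, and DC3 was lower than DC1a in 6 of 6 pools, than DC1b in 5 of 6 and than DC2 in 5 of 5. Fitted differences of DC3 were -1.29 (SE 0.38) against DC1a, -1.07 (SE 0.37) against DC1b and -1.09 (SE 0.37) against DC2 in untreated mice, and -1.005 (SE 0.26), -0.93 (SE 0.27) and -0.49 (SE 0.28) in TLI mice. None passed the threshold in edgeR, and the smallest adjusted p was 0.111, against DC1a in TLI mice.

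H2-D1, the other heavy chain gene of the list, had a higher counted level per kilobase than H2-K1 and varied with treatment and pool. How the C57BL/6 reference affects the order of these genes in BALB/c mice was not tested. Its level in untreated pools was 1110 and 1020 CPM in DC1a, 982 and 1126 CPM in DC1b, 1440.3 and 1564 CPM in DC2, and 869 CPM in both DC3 libraries. In TLI pools 1 to 4 it was 2152, 3514, 1225 and 1173 CPM in DC1a, 1236, 2698, 2071 and 1904 CPM in DC1b, and 921, 1936, 508 and 631 CPM in DC3. In DC2 of TLI pools 1, 3 and 4 it was 1497, 1241 and 1038 CPM. Pool 2 had the highest value of each of its subsets. DC3 was lower than DC1a and DC1b in 6 of 6 pools and lower than DC2 in 5 of 5, but the ranges of the groups overlapped in TLI mice. The TLI difference of DC3 against DC1b was -1.16 (SE 0.31, adjusted p = 0.0922, edgeR). With the pool of mice as a replicate block it was -1.18 with an adjusted p of 0.0356, and in batch 2 alone -1.80 with 0.0185 (edgeR). Of 35 alternative settings only 8 called this difference (edgeR or DESeq2). Over all of them it lay between -1.80 and -0.49, with adjusted p up to 0.804 by those tests.

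**Figure D2:**
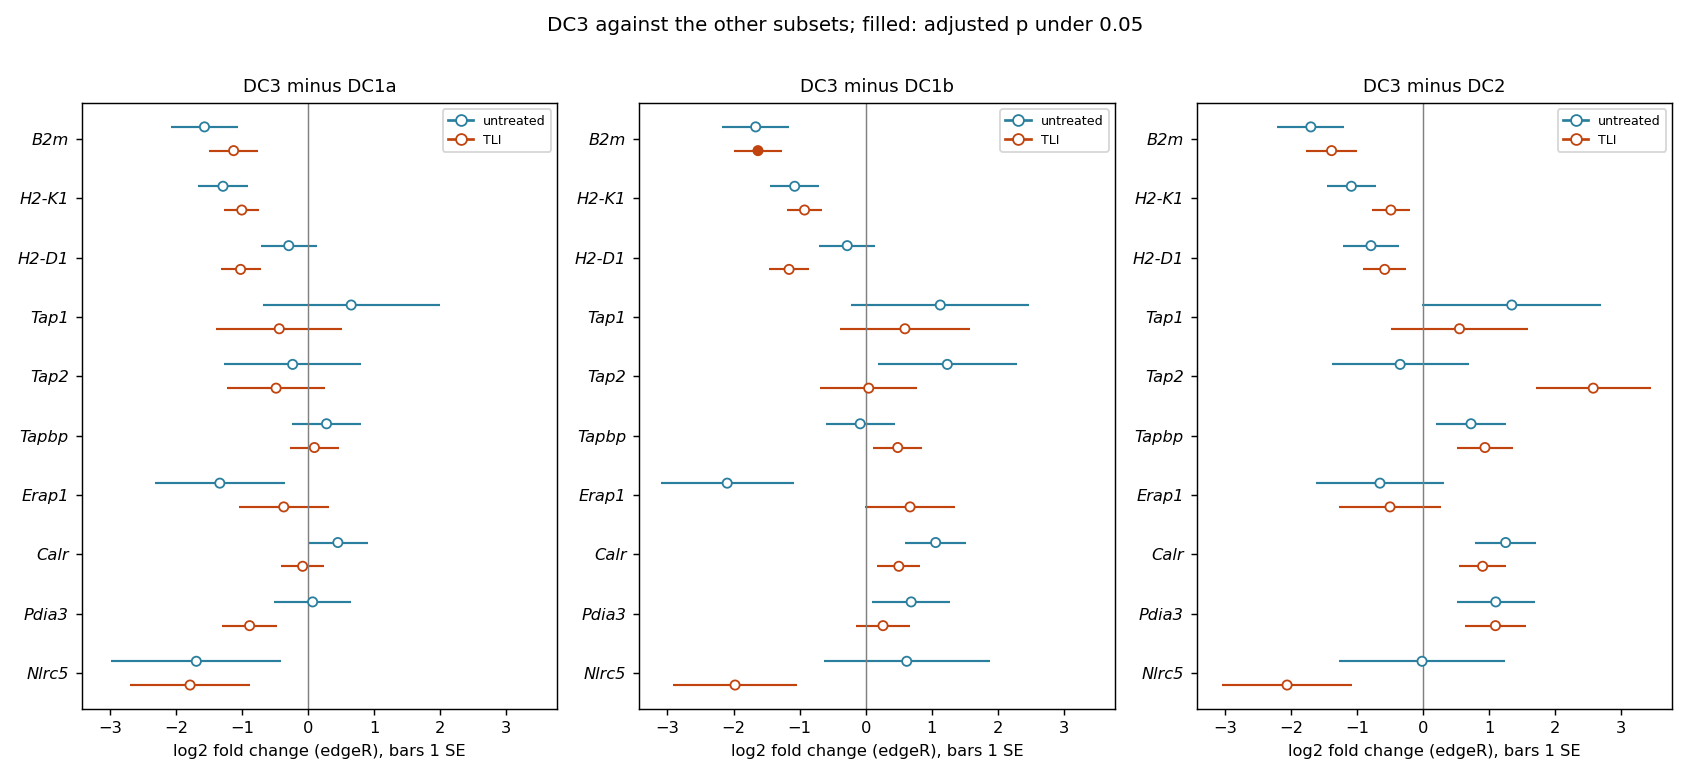
Fitted log2 fold change of DC3 against DC1a, DC1b and DC2 for the 10 genes (horizontal axis, edgeR; bars are 1 SE), in untreated (blue) and TLI mice (orange); filled points have an adjusted p under 0.05. B2m, H2-K1 and H2-D1 lie left of 0 in all 6 comparisons. Calr, Pdia3, Tapbp and Tap1 lie right of 0 against DC2 in untreated and TLI mice. The only filled point is B2m against DC1b in TLI mice, at -1.63.

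Averaging the untreated and the TLI difference with equal weight, a choice made after these values were seen, used all libraries of both subsets. DC3 then had less B2m than DC1a (-1.35, SE 0.31, adjusted p = 0.0403), DC1b (-1.65, SE 0.31, adjusted p = 0.0105) and DC2 (-1.54, SE 0.32, adjusted p = 0.0110) by the same test. H2-K1 was lower in DC3 than in DC1a (-1.15, SE 0.23, adjusted p = 0.0155, edgeR) and DC1b (-0.9996, SE 0.23, adjusted p = 0.0394), and the difference from DC2 was -0.79 (adjusted p = 0.0830). Of the 10 members 2 were called in DC3 minus DC1a, where 1.40% of all genes were called, 2 in DC3 minus DC1b (1.33%), 1 in DC3 minus DC2 (3.33%) and 1, Pdia3, in DC2 minus DC1a (7.01%). None was called in DC1b minus DC1a (2.89%) or DC2 minus DC1b (0.750%), with 2 and 0 at an unadjusted p under 0.05. The call for H2-K1 against DC1b was lost with the replicate block (adjusted p = 0.0722) and without any of 15 single libraries (the 8 untreated ones, DC1a of TLI pools 1, 3 and 4, and DC1b and DC3 of TLI pools 3 and 4), with adjusted p up to 0.214 (edgeR). That for B2m against DC1a was lost without any of 16, with adjusted p up to 0.189 (every untreated library but DC2 of pool 1, DC1a of TLI pools 3 and 4, DC1b of TLI pool 2, DC2 of TLI pools 1, 3 and 4, and DC3 of TLI pools 2, 3 and 4). The remaining DC3 calls were each lost without either untreated DC3 library or 1 other, DC1b of untreated pool 2 for B2m against DC1b (adjusted p up to 0.0951), DC2 of untreated pool 1 for B2m against DC2 (up to 0.0745) and DC1a of untreated pool 1 for H2-K1 against DC1a (up to 0.136). With plain library totals the adjusted p was 0.0691 for H2-K1 against DC1a, 0.0635 for H2-K1 against DC1b and 0.0627 for B2m against DC1a, and the last was also 0.0506 with RLE size factors and 0.0640 without the batch term (edgeR). For H2-K1 against DC1b it was 0.103 without the batch term, and the call was also lost without a filter on low counts. In batch 1 alone no averaged difference was called. The averaged differences are not independent of those they combine.

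Pdia3, the oxidoreductase of the loading complex, was lower in DC2 than in DC1a of TLI mice. In untreated pools 1 and 2 its level was 229 and 283 CPM in DC1a, 129 and 204 CPM in DC1b, 66.8 and 184 CPM in DC2, and 261 and 276 CPM in DC3. In TLI pools 1 to 4 DC1a had 698, 1209, 265 and 295 CPM, DC1b had 203, 588, 172 and 101 CPM, and DC3 had 221, 940, 111 and 154 CPM. DC2 of TLI pools 1, 3 and 4 had 223, 72.4 and 74.9 CPM, below every DC1a library of TLI mice. In TLI mice DC2 was lower than DC1a by -1.98 (SE 0.48, adjusted p = 0.0292, edgeR), the only member called of 10 where 3.40% of all genes were called. Within batch 1 the difference was -2.01 (adjusted p = 0.515) and within batch 2 -1.82 (adjusted p = 0.0712, edgeR). The call was lost without any of 6 single libraries (the DC2 libraries of TLI pools 1, 3 and 4 and the DC1a libraries of TLI pools 2, 3 and 4, adjusted p up to 0.120), with log2 fold changes between -2.10 and -1.77. With plain library totals in place of TMM factors it was -1.67 (adjusted p = 0.0677). In untreated mice the difference was -1.03 (SE 0.59, adjusted p = 0.473). The averaged difference was -1.51 (SE 0.38, adjusted p = 0.0229, edgeR), with adjusted p up to 0.139 without DC2 of TLI pool 1, DC2 of untreated pool 1 or either untreated DC1a library. That adjusted p was 0.0681 with plain library totals and 0.167 without the batch term (edgeR). DC1b minus DC1a was -1.15 (SE 0.42, adjusted p = 0.233) and, with the replicate block, -1.23 (adjusted p = 0.0495, edgeR). Pdia3 was lower in DC1b than in DC1a in 6 of 6 pools and lower in DC2 than in DC1a in 5 of 5.

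Calr, the lectin chaperone that works beside Pdia3, had the opposite order to B2m between DC3 and DC2. Its level in untreated pools was 254 and 277 CPM in DC1a, 166 and 182 CPM in DC1b, 144 and 161 CPM in DC2, and 391 and 335 CPM in DC3. In TLI pools 1 to 4 it was 403, 738, 234 and 281 CPM in DC1a, 177, 335, 291 and 200 CPM in DC1b, and 264, 801, 240 and 253 CPM in DC3. DC2 of TLI pools 1, 3 and 4 had 238, 148 and 163 CPM. Every DC3 library was above every DC2 library, by 240 CPM at the lowest against 238 CPM at the highest. The difference of DC3 from DC2 was 1.25 (SE 0.46, adjusted p = 0.299) in untreated mice, 0.90 (SE 0.36, adjusted p = 0.291) in TLI mice and 1.07 (SE 0.29, adjusted p = 0.0551, edgeR) averaged over both. With the replicate block the averaged value was 0.93 with an adjusted p of 0.0371 (edgeR), and 12 of 33 alternative settings called the averaged difference. The DC3 libraries of TLI mice include pool 2, at 801 CPM, and DC2 has no library of that pool. Without single libraries the TLI difference lay between 0.51 and 1.08.

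TLI pool 2 stood apart in the chaperones. Its Calr levels of 335 to 801 CPM and Pdia3 levels of 588 to 1209 CPM were the highest of their subset in all 3 libraries of the pool. Hspa5, the chaperone BiP, was also highest there, with 1398 CPM in DC1a, 507 CPM in DC1b and 1228 CPM in DC3, against 56.2 to 717 CPM in the other 20 libraries. DC1a of TLI pool 1 followed with 403 CPM of Calr, 698 CPM of Pdia3 and 717 CPM of Hspa5. The same pool 2 libraries had low B2m (3078, 4759 and 1612 CPM), the lowest of their subset in each case. Batch 2 minus batch 1 over the TLI pools was -1.77 for Pdia3 (SE 0.31, adjusted p = 0.000859), -1.99 for Tap2 (SE 0.56, adjusted p = 0.0212), -0.77 for H2-D1 (SE 0.23, adjusted p = 0.0260) and -0.75 for Calr (SE 0.24, adjusted p = 0.0411) by edgeR's test. These 4 members called lower compare with 17.4% of all genes called, 8.07% lower. The median batch difference was -0.27 over the members and -0.23 over all genes tested.

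**Figure D3:**
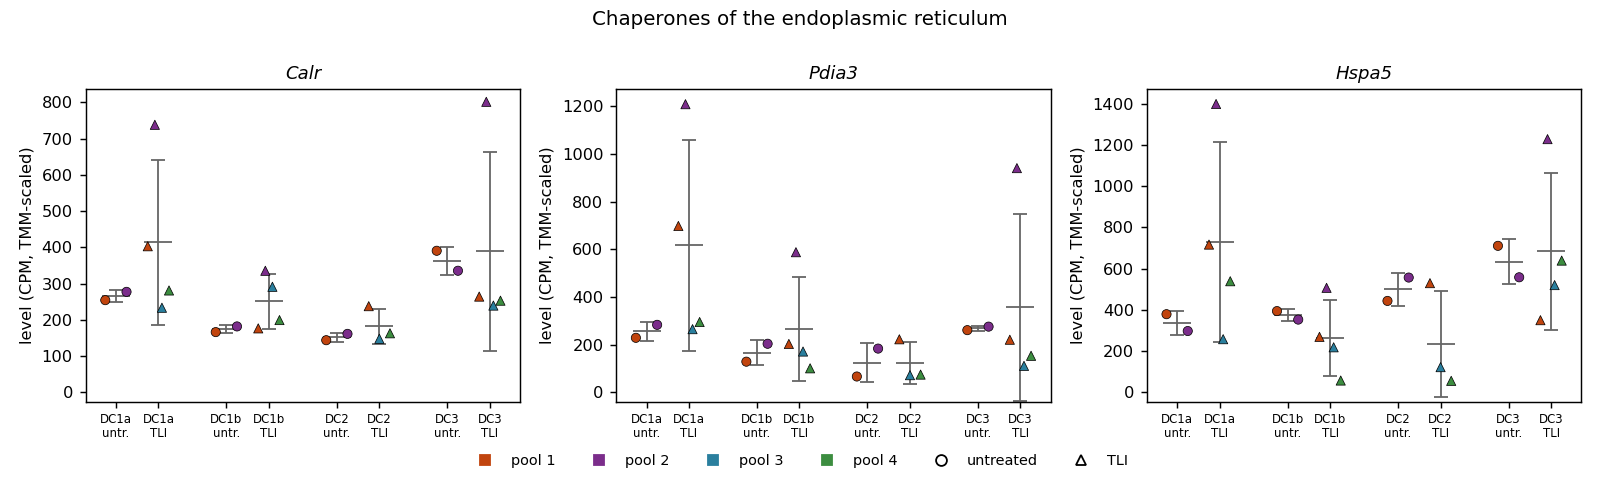
Level of Calr, Pdia3 and Hspa5 in CPM (linear axis, TMM-scaled) by subset and treatment; points are libraries coloured by pool (circles untreated, triangles TLI), with mean and SD per group, and the axis cuts some bars that reach below 0. TLI pool 2 is the highest triangle in each subset it was sampled in, for example 1209 CPM of Pdia3 in DC1a.

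The peptide transporter genes were low and uneven. Tap1 ranged from 0.231 to 202 CPM over the libraries, with a median of 50.5 CPM. In DC1b of TLI pool 4 it had 7 counts (0.231 CPM), while the other DC1b libraries of TLI mice had 84.9, 90.9 and 69.1 CPM. In untreated mice Tap1 was 41.0 and 42.6 CPM in DC1a, 25.4 and 34.6 CPM in DC1b, 27.0 and 24.8 CPM in DC2, and 103 and 28.4 CPM in DC3. Tap2 fell to 5 counts (0.144 CPM) in DC2 of TLI pool 3 and 3.23 CPM in that of pool 4, against 17.5 CPM in pool 1 and 36.5 and 66.8 CPM in untreated DC2. Its highest values were 146 CPM in DC1a and 87.2 CPM in DC3 of TLI pool 2. The TLI difference of DC2 from DC1a in Tap2 was -3.06 (SE 0.89, adjusted p = 0.0720, edgeR), and batch 2, which holds the lowest 2 values, is also where the batch term lowered Tap2. Tap1 had no difference with an unadjusted p under 0.05 between subsets or treatments.

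Erap1 and Tapbp also overlapped between most groups. Erap1, which trims peptides to the length that class I binds, ranged from 4.03 to 126 CPM, the highest in DC2 of TLI pool 3 and the lowest in untreated DC3 of pool 2. In untreated mice it was 45.7 and 50.7 CPM in DC1b, above the 31.5 and 25.5 CPM of DC1a, the 6.99 and 28.5 CPM of DC2 and the 18.5 and 4.03 CPM of DC3. In TLI mice DC1b had 19.9, 42.1, 18.5 and 21.6 CPM, and DC3 had 37.003, 59.9, 43.0 and 22.4 CPM. Tapbp, which holds the empty class I molecule at the transporter, ranged from 58.5 to 317 CPM. In TLI mice its mean was 213 ± 78.4 CPM in DC3 (SD, n = 4) and 116 ± 55.3 CPM in DC2 (n = 3), a fitted difference of 0.94 (SE 0.42, adjusted p = 0.351, edgeR). The DC3 mean includes TLI pool 2, at 310 CPM its highest value, and DC2 has no library of that pool. Without single libraries the difference lay between 0.49 and 1.27. Within a pool Tapbp was higher in DC3 than in DC2 in 5 of 5 pools.

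Nlrc5, the activator of class I transcription, was highest among untreated libraries in DC1a, at 78.7 and 92.8 CPM, against 15.99 and 18.5 CPM in DC1b, 29.8 and 23.8 CPM in DC2, and 12.96 and 40.1 CPM in DC3. In TLI mice DC1a had 37.3, 21.8, 45.5 and 31.4 CPM, below both untreated libraries. DC1b of TLI mice ran from 6 counts (0.198 CPM) in pool 4, the library in which Tap1 was also near the floor, to 125 CPM in pool 3. DC3 of TLI mice had 6.92, 13.8, 6.48 and 10.5 CPM, below the 34.1, 54.1 and 44.1 CPM of DC2. No difference in Nlrc5 between subsets or treatments had an unadjusted p under 0.05 in the separate comparisons, and the averaged difference of DC3 from DC1a was -1.74 (SE 0.80, adjusted p = 0.339, edgeR).

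**Figure D4:**
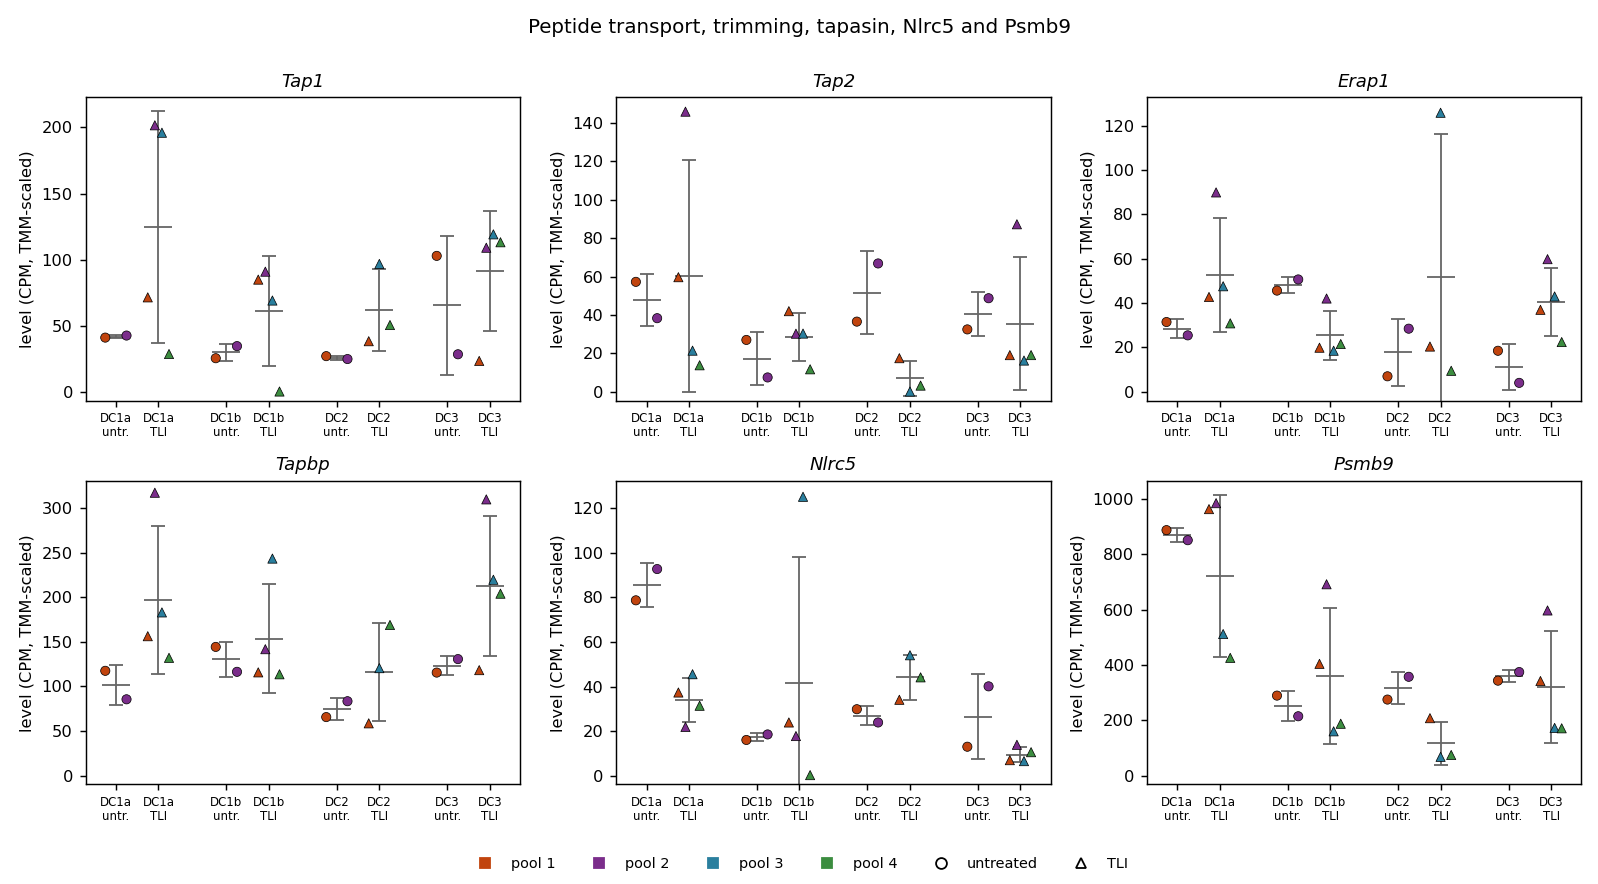
Level of Tap1, Tap2, Erap1, Tapbp, Nlrc5 and the immunoproteasome subunit Psmb9 in CPM (linear axis, TMM-scaled) by subset and treatment; points are libraries coloured by pool (circles untreated, triangles TLI), with mean and SD per group, and the axis cuts some bars that reach below 0. Tap1 and Nlrc5 are near 0 in DC1b of TLI pool 4 and Tap2 in DC2 of TLI pool 3, and Psmb9 in DC1a spans 426 to 985 CPM.

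No member passed the threshold between TLI and untreated mice in any subset. Of all genes 0.0102% were called in DC1a, 0.413% in DC1b, 0.0612% in DC2 and 0.0255% in DC3 by edgeR's test. At an unadjusted p under 0.05 there were 8 of 40 pairs, 7 of them higher in TLI mice (20%, against 10.4% over all genes), and DESeq2 called 2. The fitted differences of the 10 members had a median of 0.90 in DC1a, 0.91 in DC1b, 0.41 in DC2 and 0.56 in DC3. Over all genes tested the medians were 0.15, 0.09, 0.02 and -0.05. In the same order 8, 8, 8 and 9 of the 10 were above 0, beside 10597, 10293, 9965 and 9517 of all 19597 genes tested. The 10 members were measured in the same libraries, so their directions are not independent. These values depend on the batch term, since batch 2 holds TLI libraries alone. In DC2 the mean of Pdia3 was 123 CPM in TLI and 125 CPM in untreated mice, beside a fitted difference of 0.95. That of H2-D1 was 1259 and 1502 CPM, beside a fitted difference of 0.26. For H2-D1 the values were 1.196 (SE 0.40, adjusted p = 0.385) in DC1a and 1.35 (SE 0.41, adjusted p = 0.188) in DC1b. For Pdia3 they were 1.90 (SE 0.57, adjusted p = 0.345) and 1.37 (SE 0.56, adjusted p = 0.336), and for Calr 0.91 (SE 0.42) and 0.94 (SE 0.43). Within batch 1, which holds all untreated libraries, H2-D1 differed by 1.34 in DC1a and 0.91 in DC1b, and Pdia3 by 1.83 and 1.25. Without DC1b of TLI pool 1, H2-D1 in DC1b differed by 1.72 with an adjusted p of 0.0421 (edgeR). Without TLI pool 2 the values were 0.62 and 0.99 for H2-D1 and 1.204 and 0.63 for Pdia3, and 0.26 and 0.53 for Calr. TLI pools 1 and 2 were also those with the highest erythroid marker sums, and the part of this RNA in the differences was not tested.

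**Figure D5:**
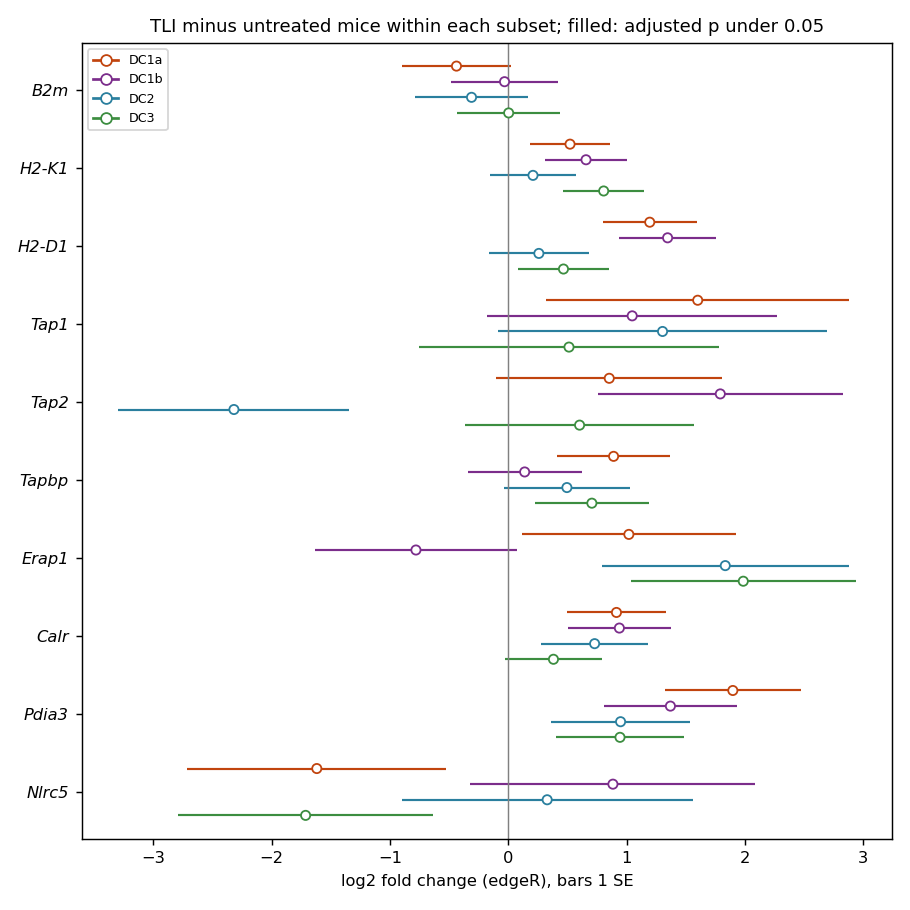
Fitted log2 fold change of TLI minus untreated mice for the 10 genes in each subset (horizontal axis, edgeR; bars are 1 SE; colours are subsets). No point is filled, which would mark an adjusted p under 0.05. H2-K1, H2-D1, Tap1, Tapbp, Calr and Pdia3 lie right of 0 in all 4 subsets, Pdia3 up to 1.90 in DC1a. Erap1 in DC3 lies furthest right, at 1.99, and Tap2 in DC2 furthest left, at -2.32.

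Tap2 in DC2 differed the other way, by -2.32 (SE 0.98, adjusted p = 0.494, edgeR), and H2-K1 in DC3 by 0.81 (SE 0.34, adjusted p = 0.438), or by 0.29 without the DC3 libraries of TLI pools 1 and 2. In tests of whether a difference between subsets itself changed with TLI, 0 of 60 pairs were called. Of all genes 0.0357% were called for DC1b minus DC1a, 0.0255% for DC2 minus DC1a, 0 for DC3 minus DC1a, 0.122% for DC2 minus DC1b, 0.0204% for DC3 minus DC1b and 0.0357% for DC3 minus DC2. With an unadjusted p under 0.05 there were 4 pairs (6.67%, against 7.28% over all genes), 3 of them Tap2 in comparisons with DC2 and 1 Erap1 in DC3 minus DC1b, and DESeq2 called 1.

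Among TLI comparisons of subsets as a whole, 2 of 60 pairs were called and 17 had an unadjusted p under 0.05 (28.3%, against 12.9% over all genes), 13 of them lower in the subset named first. Besides the values above, no member was called in DC1b minus DC1a (1.42% of all genes called), DC3 minus DC1a (0.750%), DC2 minus DC1b (0.214%) and DC3 minus DC2 (1.37%). The median fitted difference of the members was -0.69 in DC3 minus DC1a and -0.68 in DC2 minus DC1a, against -0.01 and 0.02 over all genes tested, and 0.15 in DC3 minus DC1b, against -0.08.

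Genes outside the list that supply peptides also differed between subsets. Of 11 genes of peptide supply and trimming, 2 were called lower in DC1b than in DC1a of untreated mice (0.837% of all genes called in either direction) and 3 in DC2 than in DC1a (1.91%) by edgeR's test. In TLI mice 4 were lower in DC2 than in DC1a (3.40%), 2 in DC1b than in DC1a (1.42%), 2 in DC3 than in DC1a (0.750%) and 1 in DC2 than in DC1b (0.214%), while 1 was higher in DC3 than in DC2 (1.37%). Psmb9, a subunit of the immunoproteasome, was 888 and 851 CPM in untreated DC1a, 289 and 214 CPM in DC1b, 275 and 357 CPM in DC2, and 343 and 374 CPM in DC3. In TLI mice it differed in 5 of the 6 comparisons of subsets, for example by -2.51 between DC2 and DC1a (SE 0.25, adjusted p = 9.21e-06, edgeR) and by 1.25 between DC3 and DC2 (SE 0.23, adjusted p = 0.00870). Psme1 and Psme2, the proteasome activator subunits, were lower in DC2 than in DC1a of untreated mice by -1.17 (adjusted p = 0.0440) and -1.29 (adjusted p = 0.00691), and of TLI mice by -1.16 and -1.05. Psmb8 was lower by -1.48 in TLI mice (adjusted p = 0.0232, edgeR). Psmb9 overlaps Tap1 on the opposite strand, and 2.38% of the Tap1 stretches are shared with it.

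Of 13 other class I chains, H2-M2, which had 6, 6 and 26 counts in the 3 TLI libraries of DC2, was lower in DC2 than in DC1a of TLI mice (0.408 and 64.5 CPM on average, adjusted p = 0.0371, edgeR) and in DC3 than in DC1b (2.62 and 79.0 CPM, adjusted p = 0.0458), and H2-Q2 in DC3 than in DC1a (12.9 and 38.9 CPM, log2 fold change -2.11, SE 0.44, adjusted p = 0.0289). The median difference over the 13 chains in TLI mice was -1.42 in DC3 minus DC1a and -0.82 in DC3 minus DC1b, with 12 of 13 below 0 in both, against medians of -0.01 and -0.08 over all genes tested, of which 50.6% and 53.4% were below 0. Of 11 other chaperones, Hsp90b1, the GRP94 chaperone, was higher in DC3 than in DC2 of untreated mice (851 and 276 CPM on average, 1.62, SE 0.33, adjusted p = 0.0244, edgeR), the direction that Calr had. In batch 2 against batch 1, 7 of the 13 chains were called lower, against 8.07% of all genes. None of the 10 regulators of class I transcription was called between subsets of untreated or of TLI mice, and Irf2 alone was called in the averaged comparisons, higher in DC2 than in DC1a (1.19, SE 0.28, adjusted p = 0.0130).

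The genes whose log2 CPM followed Nlrc5 most closely over the 23 libraries, out of 10146 genes averaging 5 CPM or more, were Nbdy (Pearson r = 0.895), Med9 (0.855), Nudcd1 (0.824), Rp2 (0.763) and 1600002K03Rik (0.761). For Tap1 they were Rragc (0.864), Dhx58 (0.852), Bloc1s6 (0.813), Wdr12 (0.805) and Rhno1 (0.805). By Spearman's rank correlation 2 of the 5 genes for Nlrc5 and 0 of the 5 for Tap1 stayed among the closest 5. Libraries of a pool share mice, and the values near 0 in DC1b of TLI pool 4 enter each of these correlations, which are given as a description.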

How the data were processed

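RNA of 23 libraries of sorted BALB/c spleen DCs was measured. Per the labels cDNA was made from sorted cells with a low-input SMARTseq kit, and the study sequenced paired ends of 76 bases. Reads were trimmed with Trimmomatic, aligned to GRCm38 with HISAT2 and summarised with StringTie for Ensembl release 84. The deposited values are estimated counts per gene that the authors made with StringTie, whole numbers without scaling. The design had assumed plain counts. Symbols came from GENCODE release M21 for 47310 of 47729 identifiers.

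The genes and lists were chosen with earlier results of these data known. Groups and pools came from the sample labels. All 23 libraries entered 1 fit of edgeR's quasi-likelihood model (edgeR 4.0.16, R 4.3.3) with 8 groups and a batch term, estimated from TLI pools alone. TMM scaling and edgeR's filter left 19597 genes, and genes were called at a Benjamini-Hochberg adjusted p under 0.05 per comparison. The common biological coefficient of variation was 1.08. Replicates are pools of mice.

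The named genes were the 10 members, the genes of 4 pathway lists that passed the threshold in a comparison described (at most 5 per list, smallest p first), and the 5 genes closest to Tap1 and to Nlrc5 by Pearson correlation of log2 CPM (prior count 2). Hspa5 is also named, chosen after its values were seen. Same-numbered libraries of a treatment share a pool of mice by the labels, so the pool pairs them. Residuals from the mean of each group within a batch correlated between -0.0153 and 0.135 over the 30 same-pool pairs, with a median of 0.00815. Each such mean was of 2 libraries, whose residuals mirror each other, so the pools of a treatment and batch gave equal values. The 30 values are therefore not independent, and no conclusion about the pairing is drawn from them.

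Alternatives were DESeq2 1.42.0, other scalings and filters, the replicate block, no batch term, fits of fewer libraries, and leaving out each library. Averaged differences, fits without TLI pool 2 or without DC3 of TLI pools 1 and 2, and the fit of batch 2 alone were added after seeing the data. The edgeR fit was also run on simulated counts, for DC3 minus DC1b of TLI mice only. These counts held planted changes but no batch or pool effects, so no conclusion about the real differences is drawn from them.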

Additional observations from a re-analysis of the deposited data

Results flagged for a closer look

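In groups of 4 libraries a single value was marked where its gap to the nearest other, divided by the range of the group, exceeded the critical value of Dixon's test. Of the 30 groups tested, 5 had such a value. The critical value gives about 1 in 20 for independent values of a normal distribution. The groups of different genes hold the same libraries, so the 5 cannot be set against that rate. In DC3 of TLI mice pool 2 lay above the other pools for Calr (801 CPM, next 264 CPM), Pdia3 (940 CPM, next 221 CPM) and Tap2 (87.2 CPM, next 19.1 CPM). Pool 1 of the same group lay below the others for Tap1 (23.4 CPM, next 109 CPM). In DC1b of TLI mice pool 2 lay above the others for Erap1 (42.1 CPM, next 21.6 CPM). Of these values 4 belong to libraries of TLI pool 2, in which Hspa5 was also high. The causes were not tested. No difference between subsets changed with TLI past the threshold.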

How the results depend on the processing

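The counts of members called of 60 pairs (40 for TLI against untreated mice) depended on the setting, and no single difference that was called changed sign. In untreated mice the 0 calls became 3 with DESeq2, 3 without a filter on low counts, and 1 with untreated libraries alone, and were 0 to 1 when single libraries were left out (1 without DC3 of TLI pool 1). In TLI mice the 2 calls became 11 with DESeq2, 7 without a filter, 4 with at least 10 counts in every library, 4 with the pool of mice as a replicate block, 0 without the batch term, 1 with TLI libraries alone, 0 in batch 1 alone, 4 in batch 2 alone and 4 without DC3 of TLI pools 1 and 2. Leaving out single libraries gave 0 to 4, with 0 without DC2 of TLI pool 1. Between TLI and untreated mice the 0 calls became 2 with DESeq2 and 0 to 1 without single libraries (1 without DC1b of TLI pool 1). For changes of subset differences with TLI the 0 calls became 1 with DESeq2. The 6 averaged calls became 10 with DESeq2, 2 with plain library totals, 3 without the batch term, 0 in batch 1 alone, 10 without TLI pool 2, and 1 to 8 without single libraries, with 1 without either untreated DC3 library. The replicate block changed no call beyond those given above. Over single differences with an unadjusted p under 0.05 and their alternatives, 1730 kept their side of the threshold, 68 gained and 83 lost it. Differences that were not called and stayed so count among the 1730. All 83 losses fell on the called differences, the 2 in TLI mice and the 6 averaged ones. Over all genes the calls, 894 in untreated and 1619 in TLI mice, ranged from 364 to 1077 and from 1081 to 1643 without single libraries. They ranged from 21 to 145 (100 with all libraries) between treatments, from 19 to 106 (47) for the change with TLI and from 1708 to 3461 (3275) for the averaged differences. Counting error was small for B2m, with at least 45367 counts in every library, whereas Tap1, Tap2 and Nlrc5 reached 5 to 7 counts in single libraries. The causes of these shifts were not tested.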
